A study of Mus musculus with 18 samples.

Results

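To ask whether dividing progenitor cells of the stomach already carry transcripts of one lineage, isthmus progenitor cells that expressed *Muc5ac* without *Muc6* were compared with isthmus progenitor cells that expressed *Muc6* without *Muc5ac*, over all other genes. The cells were taken from dataset 2, the single-cell transcriptomes of corpus gastric units measured by Quartz-Seq2, a plate-based method that counts unique molecular identifiers (UMIs). All cells came from wild-type male C57BL/6J mice that were 10 weeks old and received no treatment. They formed 2 pools of 3 mice each, K and T, prepared by different operators, and each pool was sorted into 6 plates of 384 wells as living single cells (Hoechst33342-positive and ToPro3-negative). The pools mix their mice, so a pool is the unit of replication and n = 2 throughout. The comparison is within pools, since each pool held cells of both classes, and the cells were not assigned to single mice.

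The authors assigned 1285 of the 3993 cells of dataset 2 to the 5 isthmus clusters 3, 5, 6, 9 and 11. A mucin was called on in a cell when its UMIs per 10000 total UMIs were above the 95th percentile of the 702 parietal cells (clusters 1 and 8), which are not known for either mucin and served as the background. The cells were thus chosen by their own *Muc5ac* and *Muc6* counts. By this rule 580 isthmus cells were Muc5ac-only, 257 in pool K and 323 in pool T, and 423 were Muc6-only, 185 in pool K and 238 in pool T. These 1003 cells of the 4484 cells in the series are described here. A further 215 isthmus cells had both mucins on and 67 had neither, and they entered no test. The mucin counts chose the classes, so they are given below as a description with no test.

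The corpus gastric unit is renewed from the isthmus, where progenitor cells divide. Their daughters move up to become pit cells, the surface mucous cells that secrete the gel-forming mucin MUC5AC with gastrokines and the trefoil peptide TFF1, or move down to become mucous neck cells, which secrete MUC6 with TFF2 and mature into pepsinogen-secreting chief cells at the gland base. Parietal cells, which secrete acid, also arise from the isthmus. Lineage priming is the name for the expression of genes of a mature cell type in progenitor cells that have not yet left the cell cycle.

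*Muc6* and *Muc5ac* lie in 1 mucin gene cluster on chromosome 7, *Muc6* at chr7:141213373-141241641 on the minus strand and *Muc5ac* at chr7:141342709-141372968 on the plus strand (GRCm39, GENCODE M39), with their start sites 101 kb apart. In the Muc5ac-only cells *Muc5ac* stood at 3398 and 2721 CPM, with the values of pool K and then pool T here and below, against 15.4 and 15.7 in the Muc6-only cells and 52.6 and 59.9 in the parietal cells. *Muc6* stood at 13.3 and 13.6 CPM in the Muc5ac-only cells, at 563 and 544 in the Muc6-only cells, and at 21.7 and 32.9 in the parietal cells. Each class was below the parietal level for the other mucin, but this order cannot be read as a difference between cell types. Cells with the other mucin on were left out of each class by the rule, whereas the parietal sums kept such cells. CPM in dataset 2 are counts per effective total, the total UMIs times a TMM factor, which was 1.06 in both pools of the Muc5ac-only cells, 1.21 and 1.19 in the Muc6-only cells and 0.785 and 0.791 in the parietal cells. On plain totals *Muc5ac* was 3617 and 2880 in the Muc5ac-only cells and *Muc6* 682 and 645 in the Muc6-only cells. Of the other gel-forming mucins of the cluster, *Muc2* had 18 and 6 UMIs in all Muc5ac-only cells of pools K and T and *Muc5b* had 41 and 44, while the Muc6-only cells had 0 and 0 UMIs of *Muc2* and 1 and 0 of *Muc5b*. These counts were too low for either gene to describe single cells.

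The thresholds were 0.819 UMIs per 10000 for *Muc5ac* and 0.672 for *Muc6*. For *Muc5ac* the 3 cells just above had 0.821, 0.838 and 0.839 per 10000 and the 3 just below had 0.816, 0.809 and 0.795. For *Muc6* the 3 cells just above had 0.673, 0.686 and 0.698 and the 3 just below 0.668, 0.668 and 0.667. Within 2-fold of a threshold lay 133 of the 1285 cells for *Muc5ac* and 284 for *Muc6*, so the *Muc6* boundary was the more crowded. The median Muc5ac-only cell had 27.05 *Muc5ac* UMIs per 10000 and the median Muc6-only cell 4.58 *Muc6* UMIs per 10000.

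**Figure D1:**
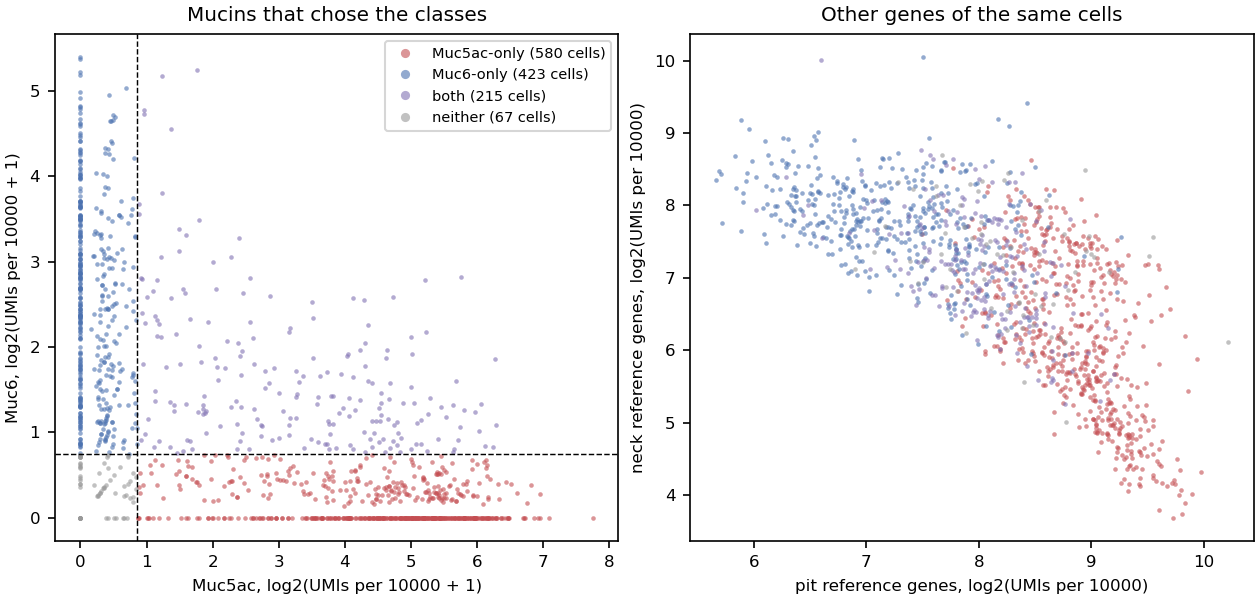
Left, *Muc5ac* against *Muc6* in the 1285 isthmus cells as log2(UMIs per 10000 + 1), 1 point per cell, coloured by class, with the thresholds dashed. Right, the same cells by the summed UMIs per 10000 of pit and of neck reference genes (log2, without the 3 leading genes of each list and without the mucins), where Muc5ac-only cells lie to the right and below and Muc6-only cells to the left and above, with cells of both mucins between.

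The upstream sequences of 3 genes are shown: *Muc6*, which helped to define the classes, and *Gkn1* and *Gkn2*, neighbouring gastrokine genes among the largest differences found between them. They are the 250 bases before the start site in RefSeq on GRCm38.p6, given 5′ to 3′ on the strand of the gene, at chr6:87350916-87351165 (minus strand) for *Gkn1*, chr6:87373115-87373364 (plus strand) for *Gkn2* and chr7:141655394-141655643 (minus strand) for *Muc6*. Capitals mark TATAA, the core of the TATA box, or GATAA, a core of GATA factor motifs, on either strand.
Gkn1: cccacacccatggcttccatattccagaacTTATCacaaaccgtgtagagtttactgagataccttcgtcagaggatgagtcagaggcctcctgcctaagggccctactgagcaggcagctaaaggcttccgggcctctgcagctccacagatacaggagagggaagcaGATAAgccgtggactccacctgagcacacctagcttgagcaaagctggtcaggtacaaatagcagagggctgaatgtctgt
Gkn2: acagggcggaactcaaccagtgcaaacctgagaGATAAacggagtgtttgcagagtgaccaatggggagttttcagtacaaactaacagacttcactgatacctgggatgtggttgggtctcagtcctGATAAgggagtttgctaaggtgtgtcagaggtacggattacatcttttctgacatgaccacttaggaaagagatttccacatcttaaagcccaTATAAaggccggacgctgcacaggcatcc
Muc6: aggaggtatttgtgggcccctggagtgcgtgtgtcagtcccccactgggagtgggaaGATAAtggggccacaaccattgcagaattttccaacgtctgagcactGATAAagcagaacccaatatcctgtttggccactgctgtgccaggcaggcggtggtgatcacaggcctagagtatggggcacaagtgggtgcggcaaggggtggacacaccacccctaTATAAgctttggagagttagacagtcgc
TATAA was present in the windows of *Gkn2* and *Muc6* and GATAA in all 3, against 22.8% and 22.6% of 32851 RefSeq promoters of the same length. Of the 12 genes most raised in Muc5ac-only cells that are named below, 8 had an entry, and 3 held TATAA and 4 held GATAA. Of the 12 most raised in Muc6-only cells, 11 had an entry, and 4 held TATAA and 0 held GATAA. These matches are a description of letters and no test of binding. *Muc5ac* and *Tff1* are named without a sequence.

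Both classes were spread over all 5 clusters and all 3 cell cycle phases called by the authors. The Muc5ac-only cells were 13.1% G1, 31.7% S and 55.2% G2/M cells and the Muc6-only cells 11.3% G1, 46.1% S and 42.6% G2/M cells, and the S share was higher in Muc5ac-only cells on 2 of 12 plates. Cluster 3 held 33.8% of the Muc6-only and 19.8% of the Muc5ac-only cells, whereas cluster 9 held 9.93% and 21.2%. The median Muc5ac-only cell had 41721 UMIs and the median Muc6-only cell 33589, with 4.05% and 4.41% of UMIs on mitochondrial genes. The same 384 well barcodes were used on all 12 plates, and every kept cell was matched to its own plate. No doublet caller was run, and the cells had passed the sorter's singlet gate.

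Counts were added up within each class, phase and pool, which gave 12 sums of 17 to 185 cells and 545119 to 8852240 UMIs, and edgeR's quasi-likelihood test compared the classes within phase and pool. The classes differed over a large part of the transcriptome. Of 10779 genes tested, 3837 (35.6%) were called at an adjusted p (Benjamini-Hochberg) under 0.05, 1977 (18.3%) higher and 1860 (17.3%) lower in Muc5ac-only cells, and the median log2 fold change of all genes was -0.01. The split between directions depended on the scaling. On plain totals in place of TMM, a setting added after seeing the data, the median was -0.15, and 1004 genes were called higher and 3267 lower, 23.5% of the calls being higher. The gene values below are by TMM unless said otherwise. The difference was at least 2-fold in 213 of the genes called higher and 397 of those called lower, and it was under 0.5 on the log2 scale in 1378 and 801. In all 6 strata of phase and pool 1616 genes (15%) were higher in Muc5ac-only cells and 1516 (14.1%) lower. The p-values rest on the spread between sums of 2 pools, and the classes were cut from counts of the same cells. With the plates of 1 pool as units, 2624 genes were called without pool K and 1663 without pool T, and 787 were called without cluster 11, which left at most 4 cells in a G1 sum.

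The genes that were furthest above in Muc5ac-only cells were products of pit cells. *Gkn2* (chr6:87350339-87356479, plus strand, GRCm39) encodes a gastrokine, a small secreted protein of the surface mucus, and stood at 22207 CPM in pool K and 16659 in pool T of the Muc5ac-only cells, against 355 and 261 in the Muc6-only cells (log2 fold change 6.02 ± 0.18 (SE), adjusted p = 4.5e-13 by edgeR). Its neighbour *Gkn1* (chr6:87322632-87327924, minus strand), with a start site 22.4 kb away, stood at 20576 and 15421 against 352 and 272 CPM (5.84 ± 0.14). *Tff1* (chr17:31380369-31384251, minus strand), the trefoil peptide of pit cells, stood at 25588 and 23706 against 633 and 730 CPM (4.98 ± 0.18). The parietal cells had 471 and 401 CPM of *Gkn2*, 475 and 401 of *Gkn1* and 406 and 365 of *Tff1*. The Muc6-only cells were above the parietal level for *Tff1* in each pool. For the gastrokines the order depended on the scaling, since on plain totals *Gkn1* stood at 427 and 322 in the Muc6-only and 373 and 317 in the parietal cells.

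Metabolic enzymes and transporters of pit cells were also among the 12 largest rises. *Slc5a5* (chr8:71335533-71345402, minus strand), the sodium-iodide symporter, had 123 and 110 CPM in Muc5ac-only and 1.29 and 1.34 in Muc6-only cells (87.9-fold over both pools, 95% counting interval 59.0 to 137). *Aldh3a1* (chr11:61098363-61109247, plus strand), an aldehyde dehydrogenase, had 749 and 502 against 13.4 and 12.96 CPM (log2 fold change 5.31 ± 0.17). For genes with few UMIs in the lower class the ratio of the counts summed over the pools, each divided by the effective total, is given, since a fitted fold change would depend on the prior count. *Capn9* (chr8:125296350-125345472, plus strand), a calpain protease of the digestive tract, had 260 and 204 UMIs in Muc5ac-only and 4 and 1 in Muc6-only cells, a CPM ratio of 60.8 (95% counting interval 25.8 to 188). It had a UMI in 28.3% of Muc5ac-only, 0.709% of Muc6-only and 1.99% of parietal cells, whose median depth was 47647 UMIs, so the Muc6-only share was at background. *Aox3* (chr1:58152289-58241493, plus strand), an aldehyde oxidase, and *Misp3* (chr8:84736851-84739149, minus strand) gave ratios of 29.4 (14.1 to 73.6) and 47.6 (18.4 to 176).

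The other 4 of the 12 were *Gm3776*, which belongs to a family of near-identical glutathione S-transferase genes, the gasdermin paralogs *Gsdmc3* (chr15:63729573-63750407) and *Gsdmc2* (chr15:63696195-63717026), both on the minus strand, and the ferlin gene *Fer1l6* (chr15:58381897-58536941, plus strand). *Gm3776* had 121 and 94.9 against 2.96 and 3.07 CPM and *Gsdmc2* 91.1 and 113 against 3.86 and 6.05 CPM. Reads of such copies can be divided between them, so their single values are uncertain. *Fer1l6* had 16.0 and 14.5 against 1.03 and 0.288 CPM, a ratio of 25.1 (13.9 to 50.6). All 12 genes were also on the list of pit genes made below from pit and neck cells alone.

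**Figure D2:**
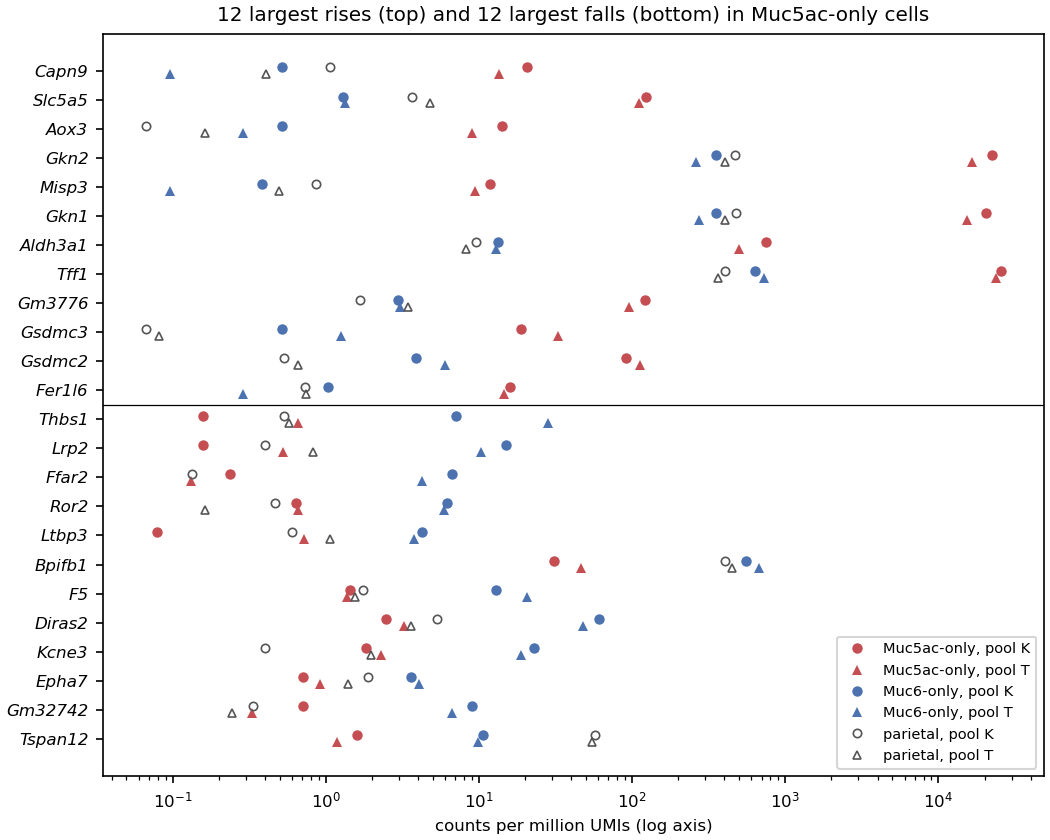
CPM (log axis) of the 12 genes most raised in Muc5ac-only cells (top) and of the 12 most raised in Muc6-only cells (bottom), with a circle for pool K and a triangle for pool T and open symbols for parietal cells; a value of 0 has no symbol. The 2 classes do not overlap for any of the 24 genes. These genes were chosen for large called differences with the same direction in all 6 strata of phase and pool. That choice favours the separation seen here. Of all genes tested, 15% were higher and 14.1% lower in Muc5ac-only cells in all 6 strata. *Tspan12* is higher in parietal cells than in either class.

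Other pit cell products differed in the same direction. Of 17 such genes 11 were tested and 11 were higher in Muc5ac-only cells, with a median log2 fold change of 2.95. Among all genes tested, 18.3% were higher. Without the filter on low counts 13 of the 17 were called higher, with a median of 2.17. *Mucl3*, a mucin-like membrane protein, had 4714 and 4727 against 647 and 445 CPM (2.95 ± 0.10), and *Psca*, a GPI-anchored surface protein, had 2578 and 2299 against 390 and 364 (2.56 ± 0.08), while parietal cells had 12757 and 13229 CPM of *Psca*. *Sctr*, the secretin receptor, had 51.3 and 35.8 against 3.99 and 3.84 CPM (3.44 ± 0.19). The differences were smaller for *Basp1* (283 and 241 against 49.3 and 40.4 CPM, 2.14 ± 0.12), for the aspartic protease gene *Ctse* (0.81 ± 0.10) and for *Anxa10* (0.38 ± 0.04), which was higher in 4 of 6 strata. *Gcnt3*, a branching enzyme of mucin glycans, differed least of the 11 (598 and 605 against 523 and 468 CPM, 0.18 ± 0.06, adjusted p = 0.023 by edgeR) and was not called on plain totals (0.04). The levels of the genes thus ran from far apart to nearly equal between the classes. A UMI of *Gkn2* was found in 100% and of *Gkn1* in 99.8% of Muc6-only cells, and in 100% and 99.9% of parietal cells. In pre-pit cells *Gkn1* reached 29776 and 30641 CPM and in mature pit cells 49511 and 51736, so the Muc5ac-only isthmus cells were below both.

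The 12 genes furthest above in Muc6-only cells had various known functions. *Bpifb1* (chr2:154032738-154062289, plus strand), a secreted mucosal protein of the BPI-fold family, had 556 and 677 CPM in Muc6-only against 30.7 and 46.6 in Muc5ac-only cells (log2 fold change of Muc5ac-only over Muc6-only -4.07 ± 0.18, adjusted p = 3.07e-11 by edgeR). Parietal cells had 407 and 446 CPM of it, so here the Muc5ac-only cells were the ones below the parietal level. *Diras2* (chr13:52658413-52685346, minus strand), a small GTPase of the Ras family, had 61.1 and 47.4 against 2.46 and 3.22 CPM (-3.96 ± 0.19) and a UMI in 63.6% of Muc6-only, 10.3% of Muc5ac-only and 8.55% of parietal cells. *F5* (chr1:163979289-164047846, plus strand), coagulation factor V, had 12.996 and 20.6 against 1.43 and 1.38 CPM (-4.00 ± 0.26). *Kcne3* (chr7:99825401-99836141, plus strand), a potassium channel subunit, had 22.9 and 18.8 against 1.83 and 2.30 CPM, a ratio of 9.85 (7.45 to 13.2). Its direction was the opposite without cluster 11 (fitted log2 fold change 0.43), where the G1 sums held 2 to 4 cells. With S and G2/M sums only all 24 genes most changed kept their call and direction. *Tspan12* (chr6:21771389-21852619, minus strand), a tetraspanin, had 10.6 and 9.89 against 1.59 and 1.18 CPM but 56.9 and 54.9 in parietal cells.

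Several of the genes lower in Muc5ac-only cells had few UMIs there. *Thbs1* (chr2:117941974-117957616, plus strand), the matrix protein thrombospondin 1, had 55 and 292 UMIs in Muc6-only against 2 and 10 in Muc5ac-only cells, and its CPM differed 44.2-fold (24.96 to 86.3). Pool T was above pool K for this gene within each class. *Lrp2* (chr2:69254682-69416409, minus strand), the endocytic receptor megalin, had 116 and 107 against 2 and 8 UMIs (34.1-fold, 18.2 to 72.01), and *Ffar2* (chr7:30517773-30536075, minus strand), a receptor for short-chain fatty acids, had 52 and 44 against 3 and 2 UMIs (29.3-fold, 12.1 to 92.4). *Ror2* (chr13:53263348-53440247, minus strand), a receptor tyrosine kinase for Wnt ligands, had 48 and 62 against 8 and 10 UMIs (9.33-fold, 5.64 to 16.3), and *Ltbp3* (chr19:5790932-5808669, plus strand), which binds latent TGF-β, had 33 and 39 against 1 and 11 (9.16-fold, 4.94 to 18.6). The ephrin receptor gene *Epha7* (chr4:28813034-28967507, plus strand) gave 4.65-fold (2.87 to 7.80) and the predicted gene *Gm32742* (chr9:51041607-51076817, minus strand) 15.2-fold (8.74 to 28.5). Of these 12 genes 11 were on the list of neck genes made below.

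The neck cell products were mostly lower in Muc5ac-only cells. Of 12 genes 11 were tested, 9 were lower and 1 higher, with a median log2 fold change of -1.46. Among all genes tested, 17.3% were lower and 18.3% higher. *A4gnt*, the enzyme that caps the glycans of gland mucin with N-acetylglucosamine, had 33.7 and 28.6 CPM in Muc5ac-only against 270 and 206 in Muc6-only cells (-2.65 ± 0.09). The water channel gene *Aqp5* had 7.79 and 6.45 against 44.9 and 68.3 CPM (-2.88 ± 0.18), and *Creb3l4*, a transcription factor of the endoplasmic reticulum, had 50.01 and 49.5 against 214 and 194 (-1.82 ± 0.07). The zymogen gene *Pgc* had 22283 and 20441 against 63505 and 58916 CPM (-1.29 ± 0.05), *Wfdc2* 94.5 and 124 against 216 and 234 (-1.06 ± 0.08) and *Agr2*, a disulfide isomerase of mucin folding, 1640 and 1638 against 3001 and 2875 (-0.65 ± 0.06). The gene called higher was *Tff2*, the trefoil peptide of neck cells, with 19510 and 19782 CPM in Muc5ac-only and 9216 and 9957 in Muc6-only cells (1.00 ± 0.04, adjusted p = 4.56e-12 by edgeR). *Tff2* stood at 22007 and 21571 CPM in pre-pit cells, 12089 and 11316 in mature pit cells and 6197 and 6918 in neck cells, so in these libraries it was lowest in the neck cells among those types.

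The pools did not give 1 picture for every neck gene. *Gkn3* had 13.7 and 15.8 CPM in Muc5ac-only and 18.4 and 89.1 in Muc6-only cells of pools K and T, and although it was called lower in Muc5ac-only cells (-1.88 ± 0.43), it was lower in 4 of 6 strata and the value without pool T was 0.66. *Cd44* had 12.96 and 10.4 against 16.0 and 22.8 CPM (-1.46 ± 0.25) and -0.83 without pool T. *Cblif*, gastric intrinsic factor, had 13.5 and 17.8 against 81.3 and 75.8 CPM (-2.38 ± 0.32) and -1.55 without pool T. *Spink4* was not called (66.0 and 53.1 against 50.4 and 59.7 CPM).

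To compare the classes with the mature lineages, genes were listed from pit and neck cells alone, without any isthmus cell. Between the pit cells (mature pit and pre-pit, 121 and 291 cells) and the 1247 neck cells, 331 genes (2.72% of 12181 tested) were called and at least 4-fold higher in pit and 673 genes (5.52%) in neck cells. In the isthmus comparison 233 of the 331 pit genes passed the filter on low counts, and 206 were called higher, 1 lower and 26 not called, with a median log2 fold change of 1.40. Of the 673 neck genes 347 passed, and 308 were called lower, 0 higher and 39 not called, with a median of -1.39. Among all genes tested, 18.3% were called higher and 17.3% lower. Without the filter 265 of 331 were called higher and 438 of 673 lower, where 2210 and 1914 of all 23844 genes were. Without cluster 11 the counts were 119 of 196 and 122 of 294, where 430 and 357 of all 10541 genes were called higher and lower. The cells of pit, neck and isthmus shared their pools and plates, so the libraries behind both comparisons are not independent.

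The differences between the isthmus classes were smaller than those between the mature types. The median ratio of the log2 fold changes was 0.47 for the pit genes and 0.50 for the neck genes. With a limit of 8-fold between pit and neck cells, 113 of 119 pit genes tested were called higher and 119 of 124 neck genes were called lower, and with a limit of 2-fold 583 of 741 and 807 of 1071. Most of the isthmus differences lay outside these lists, since the 206 pit genes were 10.4% of all genes called higher and the 308 neck genes 16.6% of all called lower.

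**Figure D3:**
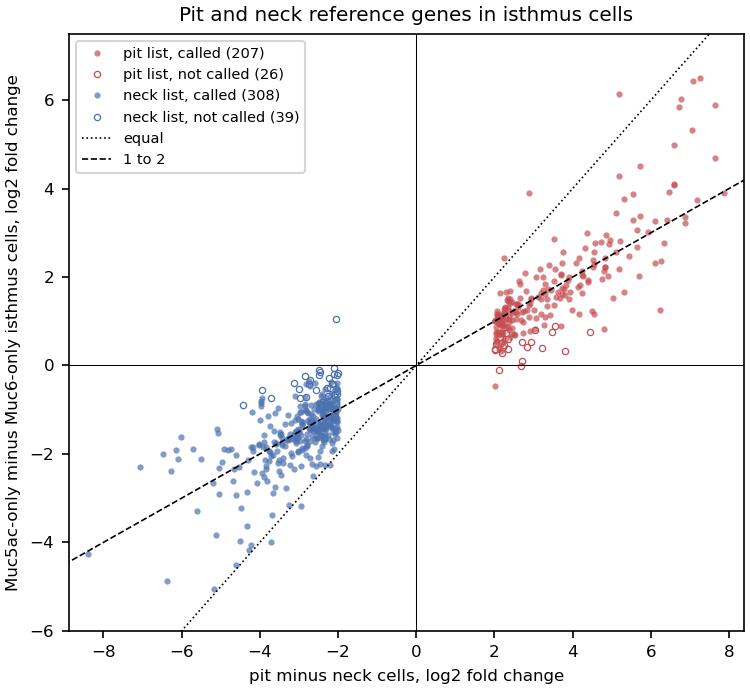
The log2 fold change of Muc5ac-only over Muc6-only isthmus cells against that of pit over neck cells, 1 point per gene of the pit list (red) and the neck list (blue), filled where called in the isthmus. The pit genes lie above 0 and the neck genes below 0 with few exceptions, mostly near the dashed line at 1 to 2 and below the dotted line of equal change.

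The same pattern was seen in single cells, described here without a test because cells of a pool share their mice. Summed over 328 pit genes without the 3 leading ones, *Gkn2*, *Tff1* and *Gkn1*, the median Muc5ac-only cell had 481 UMIs per 10000 and the median Muc6-only cell 146, against 610 in pre-pit, 985 in mature pit, 80.8 in neck and 242 in parietal cells. Summed over 670 neck genes without *Pgc*, *Clps* and *Pla2g1b*, the medians were 71.6 and 225, against 38.9, 19.9, 321 and 134. On either scale each isthmus class stood on the side of its own lineage, short of the mature cells. Only 4 of 423 Muc6-only cells (0.946%) were above the Muc5ac-only median of the pit genes, and 29 of 580 Muc5ac-only cells (5%) were above the Muc6-only median of the neck genes. The 215 cells with both mucins had medians of 265 and 141 and the 67 cells with neither had 304 and 159. Both thus lay between the classes on both scales, and *Tff1*, at 7211 and 6479 CPM in the cells with both, did so too.

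Transcription factors of the lineages had smaller median differences than the products. The study named its lineage factors on these samples, so their direction here is not independent evidence. Of 11 pit lineage factors 9 were tested, 6 were higher in Muc5ac-only cells and 0 lower, with a median log2 fold change of 0.49. Among all genes tested, 18.3% were higher and 17.3% lower. *Klf4*, a zinc-finger factor of epithelial differentiation, had 592 and 621 CPM in Muc5ac-only against 152 and 178 in Muc6-only cells (1.67 ± 0.06), a level close to the 637 and 715 of pre-pit cells. The nuclear receptor gene *Pparg* had 53.9 and 67.3 against 18.1 and 22.8 (1.26 ± 0.08), *Klf3* 247 and 228 against 136 and 130 (0.56 ± 0.07), and *Foxa3* 60.5 and 60.5 against 36.3 and 40.6 (0.49 ± 0.08). *Elf3* was called with a small difference (0.21 ± 0.07), which was 0.05 without pool K and was not called by DESeq2 or on plain totals. The call count of this list was 4 by DESeq2, 4 on plain totals and 3 without cluster 11. The interferon-pathway factor *Irf7* (0.51 ± 0.21, adjusted p = 0.071 by edgeR) was not called.

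Of 10 neck lineage factors all were tested, 9 were lower in Muc5ac-only cells and 0 higher, with a median of -0.56. The shares of all genes tested were 17.3% lower and 18.3% higher. *Isl1*, a LIM homeobox factor, had 28.1 and 25.3 CPM against 72.7 and 60.5 (-1.32 ± 0.10) and *Spdef*, a factor of mucus-secreting cells, 62.1 and 73.7 against 174 and 159 (-1.08 ± 0.07). *Sox9* (215 and 230 against 347 and 340, -0.59 ± 0.05) and *Klf5* (338 and 362 against 506 and 516, -0.55 ± 0.06) differed by less than 2-fold. Every stratum of phase and pool had the same direction for these 4 factors. *Mecom* was not called (0.07 ± 0.06).

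Of 20 further factors of foregut epithelium 14 were tested, 5 were higher and 5 lower, with a median of -0.06, where 18.3% of all genes were higher and 17.3% lower. On plain totals 3 were higher and 6 lower, and without cluster 11 it was 3 and 2. Among those higher in Muc5ac-only cells were *Tfcp2l1* (128 and 127 against 55.1 and 58.9 CPM, 0.96 ± 0.07), *Gata4* (394 and 382 against 284 and 289, 0.41 ± 0.06) and *Foxq1*, a forkhead factor of surface mucous cells (385 and 443 against 271 and 326, 0.41 ± 0.05). Lower were *Bhlha15*, which encodes the chief cell factor MIST1 (1.75 and 1.97 against 7.08 and 6.82, -1.73 ± 0.29), *Creb3l1* (194 and 207 against 465.7 and 437, -0.99 ± 0.06), *Sox2*, a foregut identity factor (34.8 and 39.6 against 52.6 and 54.3, -0.61 ± 0.08) and *Foxa1* (-0.27 ± 0.04). *Foxa1* also stands among the neck lineage factors above, and its log2 fold change of pit over neck cells was -0.40. *Gata6* was not called by TMM (-0.12 ± 0.05) but was called lower on plain totals (-0.25).

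Genes of EGF signaling moved in both directions, where 18.3% of all genes were higher and 17.3% lower. Of 9 EGF-family ligands 4 were tested: *Tgfa* (38.1 and 34.6 against 23.3 and 23.2 CPM, 0.54 ± 0.11) and *Btc* (36.7 and 43.4 against 23.0 and 23.1, 0.58 ± 0.11) were higher in Muc5ac-only cells, and *Hbegf* was lower (26.0 and 44.1 against 47.4 and 79.6, -0.82 ± 0.07). Of 3 receptors tested, *Egfr* was higher (28.7 and 27.2 against 20.7 and 16.3 CPM, 0.71 ± 0.11), while *Erbb2* (0.07 ± 0.07) and *Erbb3* (0.10 ± 0.06) were not called. *Tgfa*, *Btc* and *Egfr* were higher in all 6 strata, but none of the 3 was called without cluster 11, where the G1 sums held 2 to 4 cells. *Tgfa* was not called with all counts thinned, and *Btc* was not called without pool T. Of 18 targets and feedback inhibitors of ERK, the kinase below the receptor, 17 were tested, 1 was higher and 8 lower, with a median of -0.46, and without cluster 11 it was 1 and 4 of 16. Lower in Muc5ac-only cells were the receptor inhibitor *Lrig1* (33.7 and 41.1 against 84.8 and 97.1 CPM, -1.13 ± 0.08), the factor *Etv5* (22.6 and 18.8 against 47.7 and 39.5, -0.95 ± 0.10), the ERK antagonist *Spry1* (15.8 and 21.4 against 29.6 and 43.0, -0.86 ± 0.11) and the ERK phosphatase gene *Dusp6* (14.4 and 16.6 against 25.5 and 28.2, -0.80 ± 0.14). The 1 higher was *Phlda1* (186 and 184 against 61.5 and 93.0 CPM, 1.10 ± 0.10). *Egr1*, on this list and among the dissociation genes below, was called lower (-0.46 ± 0.16), but not by DESeq2 or without pool T.

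Other signaling lists had members called in both directions, as had all genes tested (18.3% higher and 17.3% lower). Over all genes 430 were called higher and 357 lower of 10541 without cluster 11. Of 17 TNF and NF-κB genes tested 5 were higher and 4 lower (median 0.10), against 2 and 5 on plain totals (median -0.04) and 1 and 1 without cluster 11. Among them were the TNF receptor gene *Tnfrsf1b* (8.43 and 9.80 against 2.96 and 5.19 CPM, 1.17 ± 0.24), *Nfkbiz* (0.71 ± 0.08) and the adhesion molecule gene *Icam1* (3.26 and 2.63 against 6.95 and 7.20, -1.29 ± 0.28). Of 9 Notch genes 2 were higher and 2 lower (median 0.01), shares near those of all genes (18.3% and 17.3%), and without pool T edgeR called 0 of 7, with 2 at an unadjusted p under 0.05. They included the ligand gene *Jag2* at 24.4 and 19.9 against 9.78 and 10.4 CPM (1.41 ± 0.17) and the receptor gene *Notch1* at -0.35 ± 0.09. Of 13 Hedgehog and BMP genes 7 were higher and 2 lower (median 0.17), against 1 and 0 without cluster 11. The Hedgehog ligand gene *Shh* had 18.7 and 22.6 against 4.89 and 4.03 CPM (2.03 ± 0.21), its signal transducer gene *Smo* 15.5 and 16.0 against 31.7 and 27.8 (-0.85 ± 0.12), and the BMP target *Id1* 544 and 574 against 317 and 354 (0.66 ± 0.06). The calls of *Shh*, *Smo*, *Jag2* and *Notch1* were lost without cluster 11, where the G1 sums held 2 to 4 cells. Of 9 Wnt genes 2 were higher and 3 lower (median -0.04), and without cluster 11 1 and 1 of 8, with the R-spondin receptor gene *Lgr4* higher (238 and 211 against 148 and 129 CPM, 0.62 ± 0.05) and the feedback inhibitor gene *Rnf43* lower (11.8 and 13.4 against 21.0 and 26.1, -0.87 ± 0.14).

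Most ARP2/3 subunits and part of the cortical actin genes were higher in Muc5ac-only cells, where 18.3% of all genes were higher and 17.3% lower. Of the 8 subunits of ARP2/3, the complex that nucleates branched actin, 7 were higher and 0 lower (median 0.36), from *Arpc3* (57.1 and 60.8 against 37.4 and 39.0 CPM, 0.54 ± 0.07) and *Arpc2* (540 and 549 against 354 and 362, 0.51 ± 0.04) to *Arpc1a*, which was not called (137 and 136 against 134 and 133, 0.00 ± 0.05). Of 11 cortical, microvillus and keratin genes tested 7 were higher and 2 lower (median 0.34). *Krt19* had 1673 and 1954 against 573 and 627 CPM (1.34 ± 0.05), *Krt8* 1841 and 1997 against 874 and 948 (0.86 ± 0.05), the brush-border myosin gene *Myo1a* 29.4 and 32.8 against 11.7 and 12.4 (1.10 ± 0.12) and the membrane-actin linker gene *Ezr* 853 and 866 against 448 and 491 (0.76 ± 0.05). *Krt7* was lower (8.51 and 18.8 against 25.7 and 30.2 CPM, -1.13 ± 0.19), so the keratins did not move as 1 group. Without cluster 11 the ARP2/3 calls were 4 of 8 and the cortical calls 5 higher and 0 lower, and on plain totals they were 5 of 8, and 5 and 2.

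Genes of the secretory machinery were more often called lower than higher, where 18.3% of all genes were higher and 17.3% lower. Of 25 genes of folding and secretion in the endoplasmic reticulum 14 were lower in Muc5ac-only cells and 2 higher (median -0.16), with the chaperone gene *Hspa5* at 1077 and 1219 against 1402 and 1490 CPM (-0.30 ± 0.05) and *Herpud1*, of the unfolded protein response, at 160 and 207 against 240 and 325 (-0.57 ± 0.06), while the lectin chaperone gene *Canx* was higher (0.20 ± 0.05) but was not called on plain totals. Of 29 lysosome genes 15 were lower and 1 higher (median -0.20), with the cholesterol carrier gene *Npc2* at 119 and 105 against 188 and 181 CPM (-0.68 ± 0.07) and the cathepsin gene *Ctsb* as the 1 higher (0.23 ± 0.05), which was not called on plain totals. These shifts were small for most members. On plain totals 0 of the first list were higher and 17 lower and 0 of the second higher and 21 lower, and without cluster 11 it was 0 and 8, and 1 and 7. The enzymes of mucin glycosylation were divided, with 7 of 18 higher and 9 lower (median -0.16), against 3 and 6 by DESeq2, 2 and 11 on plain totals and 3 and 2 without cluster 11. The fucosyltransferase gene *Fut4* (47.9 and 43.0 against 29.98 and 25.7 CPM, 0.55 ± 0.11) and *Galnt6*, which starts O-glycans (169 and 168 against 116 and 128, 0.45 ± 0.05), were higher. The core-branching enzyme gene *Gcnt1* (17.3 and 12.8 against 42.8 and 28.5, -0.91 ± 0.15) and *Fut9* (1.99 and 2.57 against 4.12 and 6.82, -1.50 ± 0.25, with 296 and 318 in parietal cells) were lower.

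**Figure D4:**
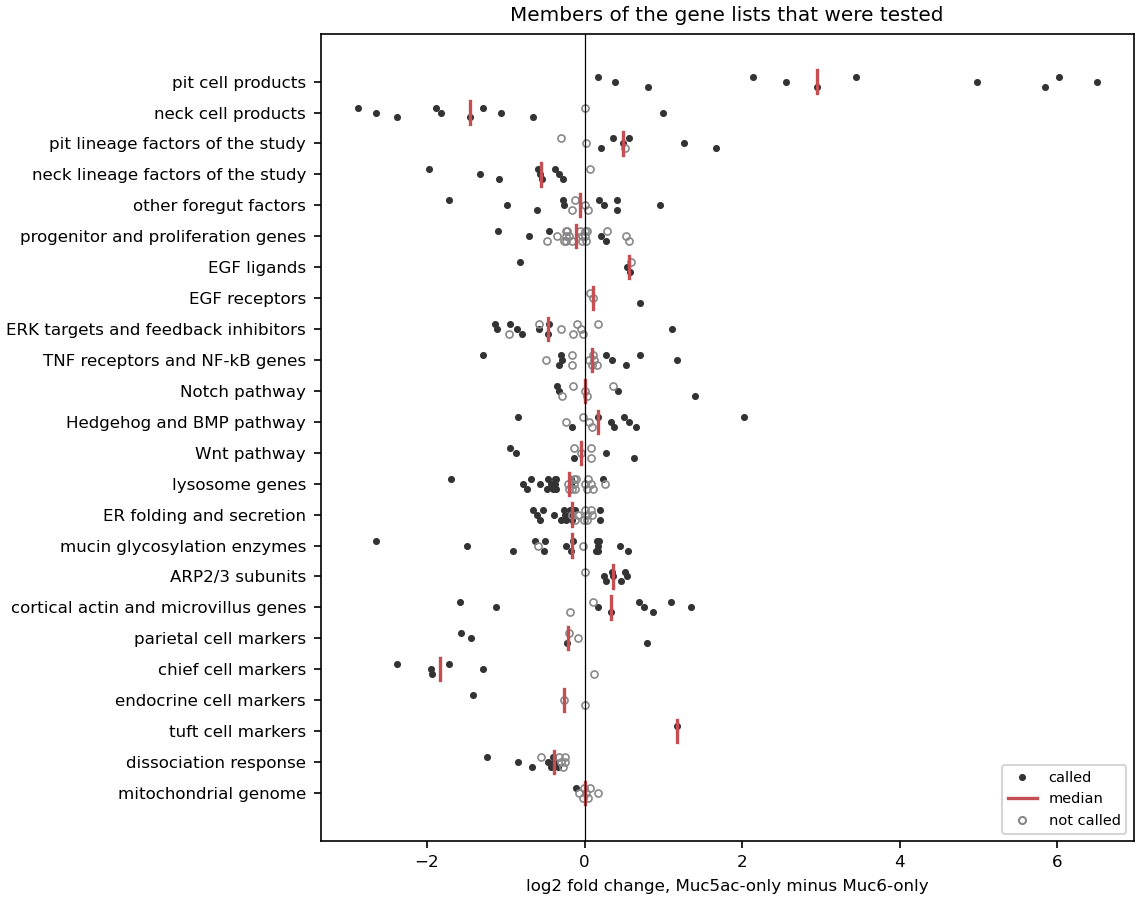
The log2 fold change of Muc5ac-only over Muc6-only cells for each tested member of the gene lists, filled where called and open where not, with the list median in red. The medians are 2.95 for pit cell products and -1.46 for neck cell products, and those of the other lists lie nearer to 0 than -1.46 except the chief cell markers (-1.83).

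The calls of genes of division depended on the setting. Of 24 progenitor and proliferation genes all were tested, 19 were not called, 2 were higher and 3 lower in Muc5ac-only cells (median -0.11), within phases that the authors had called from such genes, a share below the 35.6% of all genes. With S and G2/M sums only 4 were higher and 10 lower, with the phases summed 1 and 12, on plain totals 0 and 8, and without cluster 11 edgeR called 0, with 6 at an unadjusted p under 0.05. *Mki67* had 273 and 270 against 245 and 259 CPM (0.01 ± 0.13) and *Top2a* 322 and 315 against 329 and 394 (-0.23 ± 0.16), whereas pre-pit cells had 15.9 and 22.3 CPM of *Mki67* and neck cells 4.29 and 6.44. Both classes were thus far above the pit and neck cells for these markers. Lower in Muc5ac-only cells were *Tcf19* (88.0 and 75.7 against 157 and 169 CPM, -0.70 ± 0.16), *Stmn1* (52.0 and 49.4 against 69.9 and 70.1, -0.46 ± 0.12, but 0.19 with every cell thinned to 10000 UMIs) and the cyclin gene *Ccne1* (20.2 and 19.4 against 29.98 and 33.3, -1.11 ± 0.30).

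Markers of other cell types were followed for their part in these levels, which was not tested. Among all genes tested, 18.3% were higher and 17.3% lower in Muc5ac-only cells. Of 6 chief cell markers 5 were lower in Muc5ac-only cells (median -1.83), and their summed level was 22489 and 20658 against 64508 and 59825 CPM, most of it *Pgc*. *Pgc*, *Cblif* and *Bhlha15* stand on this list and on lists above. *Pga5*, a pepsinogen gene, had 151 and 150 against 880 and 778 CPM (-1.95 ± 0.15). On plain totals it stood at 1066 and 924 in Muc6-only, 80.9 and 76.0 in chief and 2605 and 2600 in neck cells. In these libraries *Pga5* was thus higher in neck than in chief cells. Of 6 parietal markers tested 1 was higher and 3 lower, and the proton pump gene *Atp4a* had 104 and 87.8 against 122 and 97.7 CPM, with 27059 and 25257 in parietal cells. The 1 higher was the carbonic anhydrase gene *Car2* (4936 and 5120 against 2707 and 2690, 0.79 ± 0.04). On plain totals *Car2* stood at 5255 and 5419 in Muc5ac-only, 2917 and 3152 in parietal and 6164 and 6493 in pre-pit cells. It thus did not mark parietal cells in these libraries. *Kcnq1* was lower (13.6 and 15.2 against 35.8 and 40.5, -1.44 ± 0.14). Of 3 endocrine genes tested 1 was lower, and of the tuft cell markers only *Avil* was tested and was higher (30.4 and 26.3 against 9.01 and 10.5 CPM, 1.17 ± 0.21), with 92.9 and 168 in mature pit cells. The stromal, endothelial and immune markers had no member tested and a summed level of 1.11 and 1.12 against 2.19 and 1.44 CPM.

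The response to dissociation moved with the classes, where 18.3% of all genes were higher and 17.3% lower. Of 14 genes induced by tissue dissociation 8 were lower in Muc5ac-only cells and 0 higher (median -0.39), and the summed level was 5022 and 7485 against 5873 and 11499 CPM. *Fosb* had 226 and 355 against 383 and 717 CPM (-0.84 ± 0.18) and *Nr4a1* 28.9 and 40.7 against 50.4 and 118 (-1.24 ± 0.21, and -0.80 without pool T). Pool T was above pool K in both classes. The count was 5 by DESeq2, 5 without pool T, 3 without the pool as a block, 3 without cluster 3 and 12 on plain totals. Of 8 genes of the mitochondrial genome tested 1 was lower by TMM and 4 on plain totals, with summed levels of 31624 and 31470 against 32554 and 30876 CPM.

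A dependence of the difference on the phase was called for few genes. In a test of the interaction of class and phase 106 genes (0.983%) were called, 77 of them higher and 29 lower in Muc5ac-only cells over the phases. In 100 of the 106 the difference was smaller in G1 than in S and G2/M cells, with median sizes of 0.61 in G1, 1.36 in S and 1.61 in G2/M on the log2 scale, against 0.38, 0.44 and 0.49 for all genes called between the classes. Of the 106 genes 47 were on the pit and 17 on the neck list, which held 233 and 347 of all 10779 genes tested. *Adh7*, a retinol-oxidizing alcohol dehydrogenase gene, had 534 and 496 CPM in G1, 562 and 569 in S and 828.5 and 826 in G2/M Muc5ac-only cells, against 86.1 and 135, 46.0 and 49.8, and 36.5 and 40.0 in the Muc6-only cells (log2 fold changes 2.17, 3.56 and 4.43, adjusted p of the interaction 8.49e-05 by edgeR). *Mal*, a lipid-raft protein gene of apical transport, gave 1.15, 4.02 and 4.605, *Sptssb*, a subunit gene of serine palmitoyltransferase, 1.84, 3.59 and 4.43, *Krt19* 0.61, 1.70 and 1.73, and the annexin gene *Anxa3* 0.78, 2.31 and 2.73. In these 5 genes the Muc6-only level was higher in G1 than in S and G2/M cells, in both pools. In contrast *Gkn1* differed by 5.93, 5.24 and 6.35 and had no interaction call.

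The opposite direction in G1 was seen in 22 of the 106 genes. *Serpinb5*, a serpin gene of epithelia, had 2.12 and 6.33 CPM in G1 Muc5ac-only against 14.1 and 20.1 in G1 Muc6-only cells, but 9.56 and 14.3 against 0.651 and 0.666 in G2/M cells. The G1 sums held 30 and 46 Muc5ac-only and 17 and 31 Muc6-only cells, fewer than those of S and G2/M. Outside cluster 11 they held 2 and 4 cells of each class. Without pool T, with the plates of pool K as units, 39 interaction genes were called, and without pool K 247. With S and G2/M sums only 113 were called, so the difference between the classes also differed between these 2 phases.

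**Figure D5:**
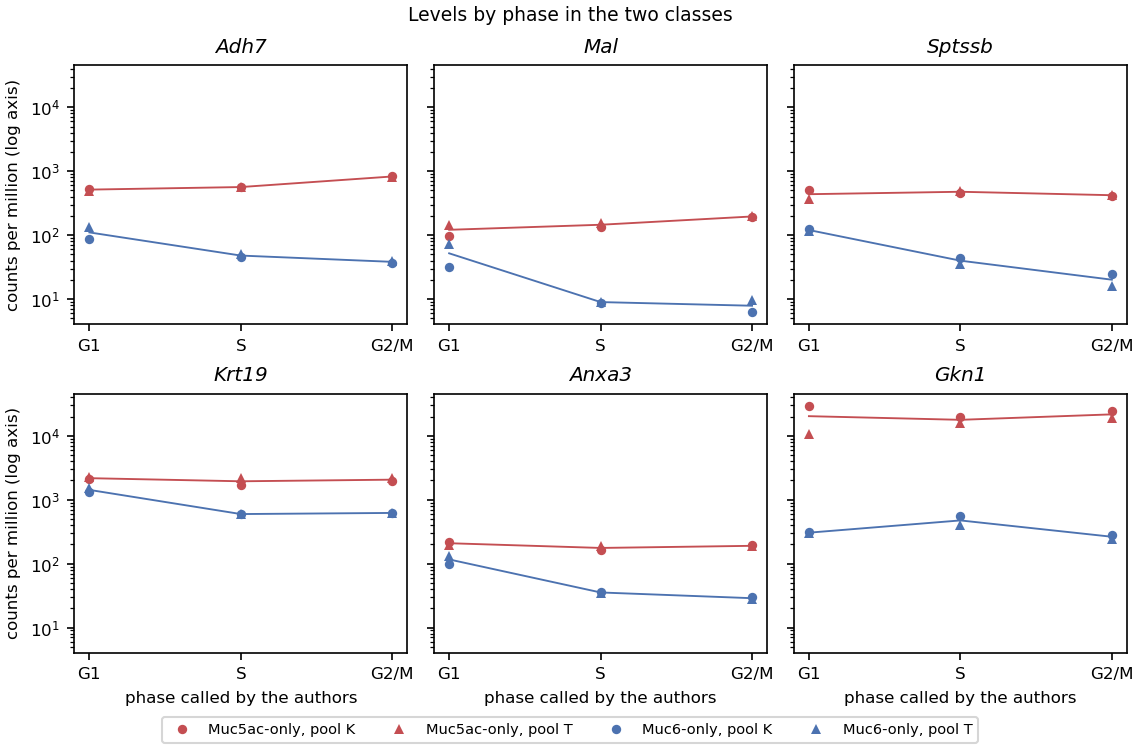
CPM (log axis) by phase in Muc5ac-only (red) and Muc6-only cells (blue), for the 5 genes with the smallest p of the interaction and for *Gkn1*, with a symbol per pool and a line through the pool means. The lines come together in G1 in the 5 genes and stay apart in all phases for *Gkn1*.

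The same classes were looked for in dataset 1, whose cells of corpus and antrum came from other pools of 3 mice. Its isthmus-like cluster had 53 cells, of which 27 were Muc5ac-only (11 and 16 in its 2 pools) and 10 Muc6-only (4 and 6) by the 95th percentile of 57 parietal cells, 0.505 per 10000 for *Muc5ac* and 0 for *Muc6*. These cells are too few for a test, and CPM here are per plain total without the mucins. The summed level of the 331 pit genes was 151579 and 135160 CPM in Muc5ac-only against 38035 and 30527 in Muc6-only cells, and that of the 673 neck genes 14945 and 24363 against 58442 and 70140. *Gkn2* had 24758 and 24279 against 1806 and 1236 CPM and *Aqp5* 1.46 and 1.10 against 232 and 48.1. *Gkn2* and *Aqp5* are on these lists and so in their sums, and *Pgc* alone had 41490 and 48613 CPM in Muc6-only cells. By gene, 294 and 268 pit genes were higher and 19 and 52 lower in Muc5ac-only cells. For the neck genes 99 and 103 were higher and 378 and 397 lower. Both summed levels and both genes thus had the direction seen in dataset 2, in each pool. *Tff2* had the opposite one, with 16411 and 18970 CPM in Muc5ac-only and 23226 and 28810 in Muc6-only cells, and *Bpifb1* had 93.3 and 0 against 18.7 and 15.0 CPM.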

How the data were processed

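Reads of the Quartz-Seq2 libraries were aligned by the authors with STAR to GRCm39 (GENCODE M27), after trimming with FASTX-Toolkit and barcode handling with Drop-seq tools, and the authors deposited whole UMI counts per gene and well. Cells with few genes were removed by the authors, who called clusters and phases with Seurat and deposited, per cell, the percent of UMIs on mitochondrial genes. Pools and plates followed the labels, with 0 unmapped columns. The members and the gene lists were chosen with earlier results of these data known.

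UMIs were summed per class, phase and pool and tested with edgeR 4.0.16 in R 4.3.3 (TMM, filterByExpr, estimateDisp, glmQLFit, glmQLFTest, Benjamini-Hochberg adjustment, threshold 0.05), with the pool as a block, since both classes of a pool came from the same pooled mice (median correlation of the deviations of sums of 1 pool 0.0927 over 15 pairs). *Muc5ac* and *Muc6* were left out of library sizes and tests. SE was taken as the absolute log2 fold change over the root of F. Counting intervals are exact (95%) and cover counting error only. Plates held 10540256 to 12850942 UMIs. Genes named were the 12 largest rises and 12 largest falls among the calls that had 10 UMIs or more in each pool of the class that was higher and 1 direction in all 6 strata, the 5 genes of smallest interaction p, and members of the lists. CPM of classes and cell types used TMM factors. Alternatives were DESeq2 1.42.0, other scaling, filters, thresholds, units and clusters.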

Additional observations from a re-analysis of the deposited data

Results flagged for a closer look

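The difference between the classes differed between phases in 106 genes by the interaction test of edgeR. The 5 with the smallest adjusted p (Benjamini-Hochberg) were *Adh7* (8.49e-05), *Mal* (9.3e-05), *Sptssb* (9.3e-05), *Krt19* (9.3e-05) and *Anxa3* (9.3e-05), each higher in Muc5ac-only cells in all 3 phases and by less in G1. No plate stood far from the others of its pool in the 12 groups of plates checked.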

How the results depend on the processing

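The direction of the 3837 called genes held in all of them under RLE scaling, DESeq2, no filter and no replicate block (3491 called without the block), and no called gene was called in the opposite direction except 1 with the phases summed, 1 with S and G2/M sums only and 2 with stricter mucin classes. Calls fell to 2546 with a mucin on at 1 UMI (1225 lower), to 787 without cluster 11 (430 higher, 357 lower; 3424 of the 3720 calls still tested had the same direction) and, in settings added after seeing the data, to 1585 with all counts thinned to 10000 UMIs per cell (845 higher, 740 lower) and to 1221 lower with stricter mucin classes; 5364 were called in S and G2/M cells alone. Plain totals, also added later, gave 1004 calls higher and 3267 lower with a median of -0.15, and 3821 of the 3837 genes had the same direction. Leaving out a pool with plates as units gave 1663 to 2624 calls, 902 to 1339 higher and 761 to 1285 lower, and 39 to 247 interaction calls. Interaction calls were 437 without the filter, 48 without the replicate block, 345 with plates as units, 62 and 61 at the 90th and 99th percentiles, 60 at 1 UMI, 65 with thinned mucin counts, 168 without cluster 5, and 0 by edgeR in stricter classes, where 430 of 8578 genes had an unadjusted p under 0.05 and no G1 sum of Muc6-only cells was left. The share of Muc5ac-only cells was 38.8%, 48.6%, 26.1% and 49.6% at the 90th percentile, the 99th, 1 UMI and thinned mucin counts; that of cells with both was 26.7%, 1.32%, 54.4% and 7.97% and with neither 2.26%, 26.6%, 0.700% and 13.7%. Muc6-only cells were 23.4%, 18.8% and 28.7% in the last 3 of these.

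Of 2869 single values of named genes under the alternatives, 2631 stayed on the same side of the threshold in the same direction, 116 lost and 27 gained the call, and 89 moved beyond their error when a pool was left out (18 of the 24 most changed genes without pool K, 17 without pool T). Without cluster 11, 32 of 98 other named genes lost the call. Sign changes were 6: *Kcne3* (0.43) and *Gkn3* (0.70) without cluster 11, *Gkn3* (0.66; range over the pools left out -2.23 to 0.66) without pool T, *Stmn1* (0.19) with all counts thinned, and *Atp4a* (0.34 at the 99th percentile, 0.0078 in stricter classes). The cause was not tested. Depth limits the genes with few UMIs in 1 class, for which the ratio and its interval are wide.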
